A study of Sus scrofa with 2 samples.

Results

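A set of 6 genes of macrophage function and the neighbour of one of them was followed through the chromatin contacts of pig spleen. A chromatin loop at a gene end was listed for 6 of the 7, of which 2 (FCER1G and APOA2) had the same loops. The genes were the Fc receptor gamma chain FCER1G and its neighbour APOA2, the receptor MERTK, the complement gene C1QB, and the transcription factors SPI1, CEBPB and MAF. The set makes up 7 of the 19550 protein-coding genes on the placed chromosomes of the RefSeq annotation of Sscrofa11.1. The genes were chosen by macrophage function with their listed loops already known, and APOA2 was added because it shares the FCER1G anchor, so the loops are described here and not tested. In situ Hi-C, which ligates fragments of crosslinked chromatin and reads which parts of the genome were neighbours in the nucleus, had been run on spleen of Sus scrofa in 2 biological replicates of 1 group, with no second tissue or treatment. The labels give neither the age nor the sex of the animals. The data were 1927 topologically associating domains (TADs, segments within which contacts are frequent) and 3410 loops (distant bins in contact more often than the pixels around them). Both lists cover the series as a whole, so no value per replicate and no spread between replicates could be given. The tissue holds many cell types, and a loop present in few cells cannot be told apart from a weak loop in many.

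Macrophages of the spleen clear antibody-coated particles, aged red cells and dying cells from the blood. FCER1G carries the activating signal of several Fc receptors, MERTK recognises dying cells through bridging proteins, and C1QB encodes a chain of C1q, the first component of the classical complement pathway. SPI1 (PU.1) is the ETS factor of the myeloid lineage, CEBPB a bZIP factor of inflammatory and differentiation programmes, and MAF a bZIP factor of mature macrophages and T cells. APOA2 is not a macrophage gene but an apolipoprotein of high-density lipoprotein, made in liver. Transcription was not measured in this series, so the activity of the genes in this tissue is unknown here.

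The members had 10 distinct loops at their ends and 4 more on the body of MAF alone. FCER1G and APOA2 had 4 loops each, which were the same 4, MERTK and CEBPB had 2, C1QB and MAF had 1, and SPI1 had 0. An anchor is a 25 kb bin at either end of a loop, and a gene was counted there when 1 of its 2 annotated ends fell inside. Among all protein-coding genes, 17.3% met an anchor with an end, 20.7% with any part, and 0.322% had 4 or more loops at their ends. The choice of members used these same loops, so the share among them carries no weight. For 3 members an end lay close to the border of an anchor, inside by 0.623 kb for MERTK, 1.33 kb for CEBPB and 1.68 kb for C1QB. Of genes just outside one, the complement gene C1QC lay 2.54 kb from the anchor of C1QB.

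**Figure D1:**
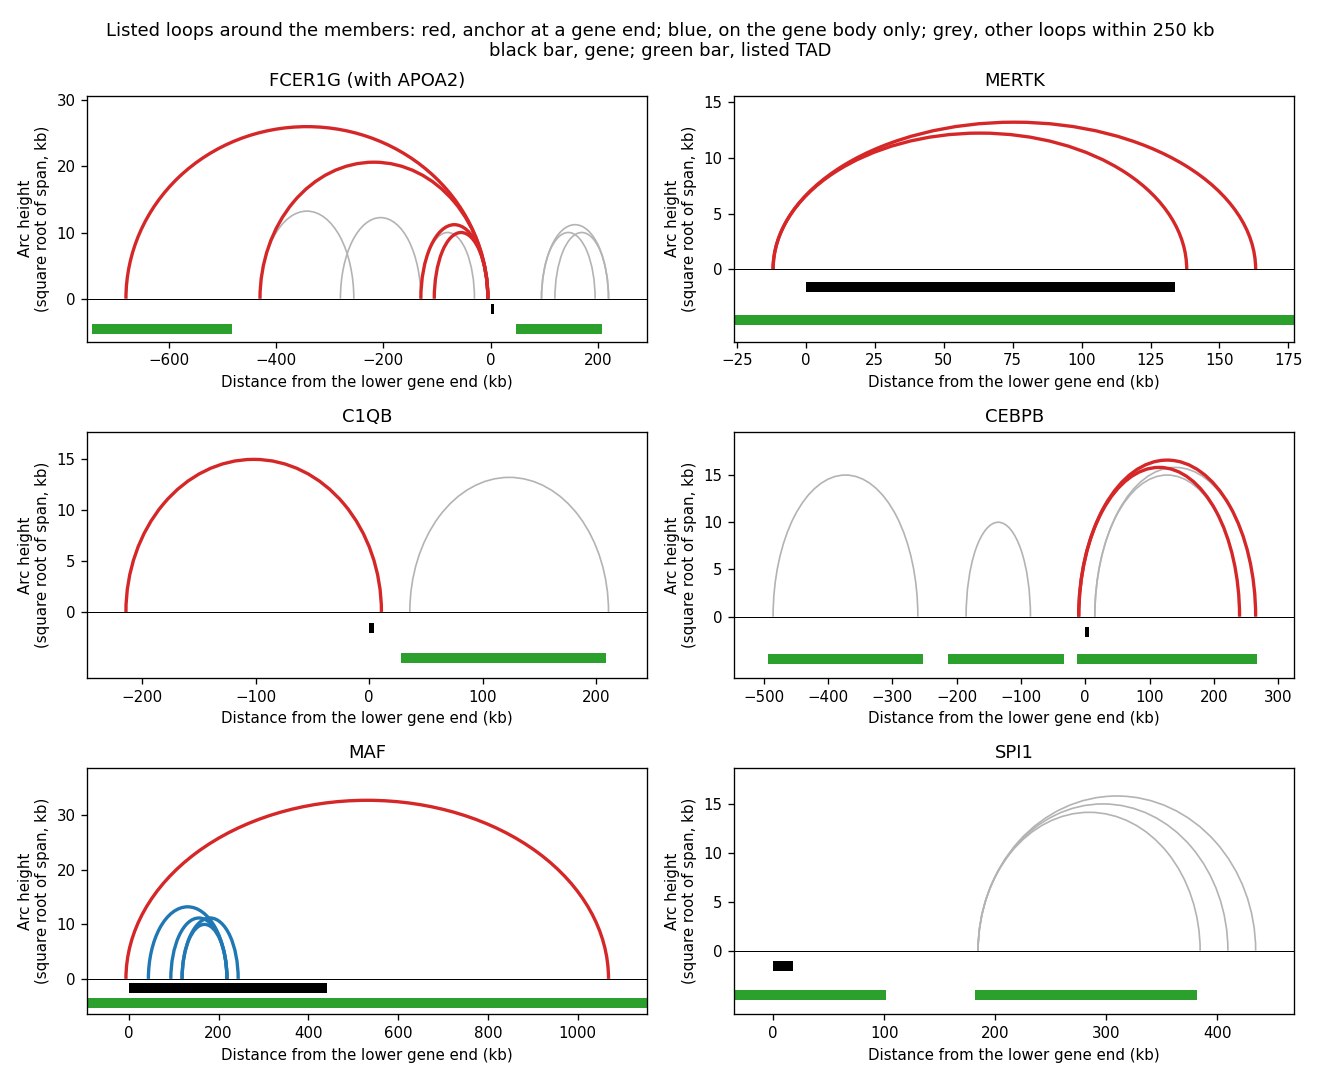
Maps of the listed loops around FCER1G (with APOA2), MERTK, C1QB, CEBPB, MAF and SPI1. The horizontal axis is the distance in kb from the lower annotated gene end, the height of an arc is the square root of the loop span in kb, red arcs have an anchor at an end of the member, blue arcs lie on its body only, and grey arcs are other loops within 250 kb. Black bars are the genes, short ones drawn at a minimum width, and green bars the listed TADs. All 4 FCER1G loops run to one side, those of MERTK enclose the gene, those of CEBPB follow a TAD, and SPI1 has none.

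FCER1G and APOA2 had the most loops at a gene end of the 7 genes, the same 4, all of which ran from a single anchor towards lower coordinates. Among the other protein-coding genes with an end in that anchor, on chromosome 4 from 89225001 to 89250000, were APOA2, NR1I3 (a nuclear receptor of drug metabolism in liver) and TOMM40L (related to a mitochondrial import pore). Anchors in 4 or more loops made up 0.908% of the 5285 distinct anchors. The loops cannot be assigned to a single gene at this bin size. By the number of shared loops, the genes most like FCER1G were NR1I3, TOMM40L and APOA2, each with all 4 in common.

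The shortest FCER1G loop was the one with the most contacts. It spanned 100 kb to the anchor from 89125001 to 89150000, with ends of SDHC, a subunit of succinate dehydrogenase, and of CFAP126, a protein of cilia. It had 200 observed contacts against 94.3 expected from the donut of pixels around it, a ratio of 2.12 (95% Poisson counting interval 1.84 to 2.44, with the expected value taken as fixed). These intervals cover counting error only, and contacts, expected values and FDR are throughout those of the authors' deposited table. Its FDR, here the largest of the 4 values listed against the different surroundings of a pixel, was 2.74e-07. Among the 1155 autosomal loops of like span (within 25 kb), 95.4% had fewer observed contacts and 85.8% a lower ratio.

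The other 3 FCER1G loops had higher FDR values. A touching pixel, 125 kb away and holding an end of CFAP126, had 130 contacts, a ratio of 1.78 (1.49 to 2.12) and an FDR of 0.0734. The loop of 425 kb reached the anchor from 88800001 to 88825000, with ends of ATF6, a sensor of stress in the endoplasmic reticulum, and of the phosphatase gene DUSP12. It had 66 contacts, a ratio of 2.39 (1.85 to 3.04) and an FDR of 0.042. The loop of 675 kb ended between 88550001 and 88575000 at OLFML2B, an extracellular matrix protein, with 41 contacts, a ratio of 2.57 (1.84 to 3.48) and an FDR of 0.0584. The counting intervals of all 4 ratios overlapped. Against loops of like span these last 3 ratios lay near the middle, above 46.8%, 53.5% and 38.5% of loops.

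The long loops enclosed other Fc receptor genes, which lie between FCER1G and ATF6. FCGR2B, the inhibitory IgG receptor, FCGR3A, the low-affinity activating IgG receptor CD16 that signals through the gamma chain, and the Fc receptor-like genes FCRLA and FCRLB were all inside the 425 and 675 kb loops. No listed loop joined the FCER1G anchor to FCGR3A directly. FCGR3A instead had 1 loop of 150 kb, from the anchor at 88950001 to 88975000 to that at 89100001 to 89125000, with 82 contacts, a ratio of 2.13 and an FDR of 1.54e-05. The latter anchor is the one with CFAP126 from which the 125 kb loop led to the FCER1G anchor. The bins of the 2 receptor genes thus each had a listed loop to a shared anchor. Whether both loops occur in the same cells cannot be told from a list for the whole tissue. The sharing rests on the 125 kb pixel (FDR 0.0734), and it was lost with a single pixel per touching group and among the 1701 loops with the lowest FDR. The FCGR3A anchor also held ends of HSPA6 and LOC110260307, and the FCER1G anchor those of several genes. Neither loop can therefore be assigned to a receptor gene. The ATF6 and DUSP12 anchor had a second loop of 175 kb, with 91 contacts and a ratio of 1.97, to the bin next to that of FCGR3A.

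FCER1G and APOA2 lay in none of the listed TADs. They sat in a gap of 530 kb between a TAD of 260 kb (88500001 to 88760000) and a TAD of 160 kb (89290001 to 89450000), 43.7 and 50.9 kb from the nearer edge. Of their 4 loops, 3 had neither anchor midpoint in a TAD, as had 32.4% of placed loops, and the 675 kb loop ended in the TAD of 260 kb. Of all protein-coding genes, 26.0% lay whole inside a TAD, and 4 of the 7 members did (MERTK, SPI1, CEBPB and MAF).

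At MERTK, a listed loop joined both ends of the gene, with an FDR near the limit of the table. The gene is 134 kb long in the annotation, and the loop of 150 kb ran on chromosome 3 from the anchor at 44325001 to 44350000 to that at 44475001 to 44500000. The first anchor also held an end of TMEM87B, a membrane protein gene, and the second an end of ANAPC1, a subunit of the anaphase-promoting complex. It had 129 contacts against 74.2 expected, a ratio of 1.74 (1.45 to 2.07), with an FDR of 0.0903, where the largest value in the table was 0.0999. Against the other surroundings of the pixel its ratio ran from 1.35 (horizontal) to 1.91 (lower-left). This loop was not kept with a single pixel per touching group, which left the 175 kb loop described next, and neither MERTK loop was among the 1701 loops with the lowest FDR. A higher ratio was listed for 866 of the 1057 loops of like span. Loops that joined both ends of 1 protein-coding gene were 1.73% of placed loops, and 1.51% of the 3901 genes of 75 kb or more had such a loop.

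The second MERTK loop touched the first and ended 1 bin further on, inside ANAPC1. It spanned 175 kb, with 113 contacts, a ratio of 1.96 (1.61 to 2.35) and an FDR of 0.0198. MERTK lay inside a TAD of 230 kb (44310001 to 44540000) that also overlapped TMEM87B and ANAPC1 and no other protein-coding gene. The 175 kb loop joined both edges of this TAD, each within 20 kb of an anchor, and the 150 kb loop stopped short of its right edge. TMEM87B shared both loops with MERTK and ANAPC1 shared 1. The pixels touch and are not independent, and the counting intervals of their ratios overlapped.

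C1QB had a single loop, and neither of its anchors held the end of another protein-coding gene. It spanned 225 kb on chromosome 6, from the anchor at 80600001 to 80625000 to a bin (80375001 to 80400000) that overlapped LOC102165262, a locus not annotated as protein-coding. The loop had 80 contacts against 41.0 expected, a ratio of 1.95 (1.55 to 2.43) and an FDR of 0.0189, and 29.9% of the 615 loops of like span had a lower ratio. At least 1 anchor without a protein-coding gene end was usual, in 73.6% of placed loops. The nearest such gene to the far anchor was ZBTB40, a zinc finger gene, at 19.8 kb.

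The 3 genes of C1q form a cluster, and the loop enclosed the other 2 chains. C1QA and C1QC lay between its anchors together with ZBTB40 and the ephrin receptor gene EPHA8. Neither C1QA nor C1QC had a loop of its own, and they lay 10.8 and 2.54 kb outside the C1QB anchor, within the width of a bin. C1QB was in no TAD and 23.9 kb from the edge of the next one (80630001 to 80810000, 180 kb). The stretch between TADs in which it lay was 1070 kb wide. The next bin, from 80625001 to 80650000, began a different loop that ran the opposite way, over 175 kb into the gene of the ephrin receptor EPHB2, with 104 contacts and a ratio of 2.18, and joined both edges of that TAD.

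Of the transcription factors, CEBPB had the loops with the most contacts for their span. On chromosome 17, the anchor from 51700001 to 51725000, in which CEBPB was the only protein-coding gene, met 2 adjoining bins at 250 and 275 kb (51950001 to 52000000). The loops had 164 and 149 contacts, more than 98.0% and 97.9% of loops of like span. Their expected contacts were high too, at 80.6 and 72.3, above 99.2% and 98.1% of loops of like span. The ratios of 2.03 (1.74 to 2.37) and 2.06 (1.74 to 2.42) were therefore ordinary, above 41.2% and 40.4%. The FDR was 1.59e-06 and 0.00043. The bin beside the CEBPB anchor formed loops with the same 2 bins, with 141 contacts each and ratios of 1.71 and 1.91, so the 4 touching pixels formed a square.

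These loops followed a TAD that held CEBPB and no other protein-coding gene. The TAD ran from 51710001 to 51990000 (280 kb), CEBPB lay 12.6 kb from its left edge, and both loops joined its edges, as did 28.6% of placed loops. TADs overlapping 1 protein-coding gene were 21.2% of those listed. CEBPB was the only member within 20 kb of a TAD edge, where 18.7% of protein-coding genes had an end. Within 10 kb there were 0 members (11.1% of genes), and within 40 kb there were 3 (29.6%). Neither far anchor held a protein-coding gene end, and the nearest was PTPN1, a tyrosine phosphatase of insulin and cytokine signalling, at 42.1 and 17.1 kb. The long non-coding RNA gene LOC102164659 had an end in the CEBPB anchor.

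MAF had 1 loop at its end and 4 on its body, in a different range of values. In the annotation the gene spans 441 kb over 4 transcripts and comes within 0.197 kb of WWOX, a large gene of 961 kb. The end loop was the longest of any member, 1075 kb on chromosome 6 from the anchor at 8450001 to 8475000 to a bin inside WWOX (9525001 to 9550000). It had 44 contacts against 16.7 expected, a ratio of 2.64 (1.92 to 3.54) and an FDR of 0.0161. Loops of 1000 kb or more made up 2.48% of autosomal loops, and the 6 loops of like span were too few for a rank.

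The 4 body loops of MAF joined bins between 8500001 and 8725000 over 100 to 175 kb and had few contacts for their span but high ratios. The loop of 175 kb had 88 contacts against 28.3 expected (ratio 3.11, 2.49 to 3.83). That of 100 kb had 98 against 18.8 (5.22, 4.23 to 6.36). The 2 loops of 125 kb had 59 against 16.1 (3.66, 2.78 to 4.71) and 83 against 14.7 (5.64, 4.49 to 6.99). The 100 kb loop and both 125 kb loops were touching pixels. The 4 therefore formed 2 separate groups and are not independent. All 4 had fewer contacts than most loops of like span, above only 18.5%, 11.9%, 1.81% and 5.86% of them. All 4 ratios were above 96.9% or more of loops of like span. The counting intervals of the 100 kb loop and of the 125 kb loop with 83 contacts lay above the ratio intervals of every end loop of the members.

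**Figure D2:**
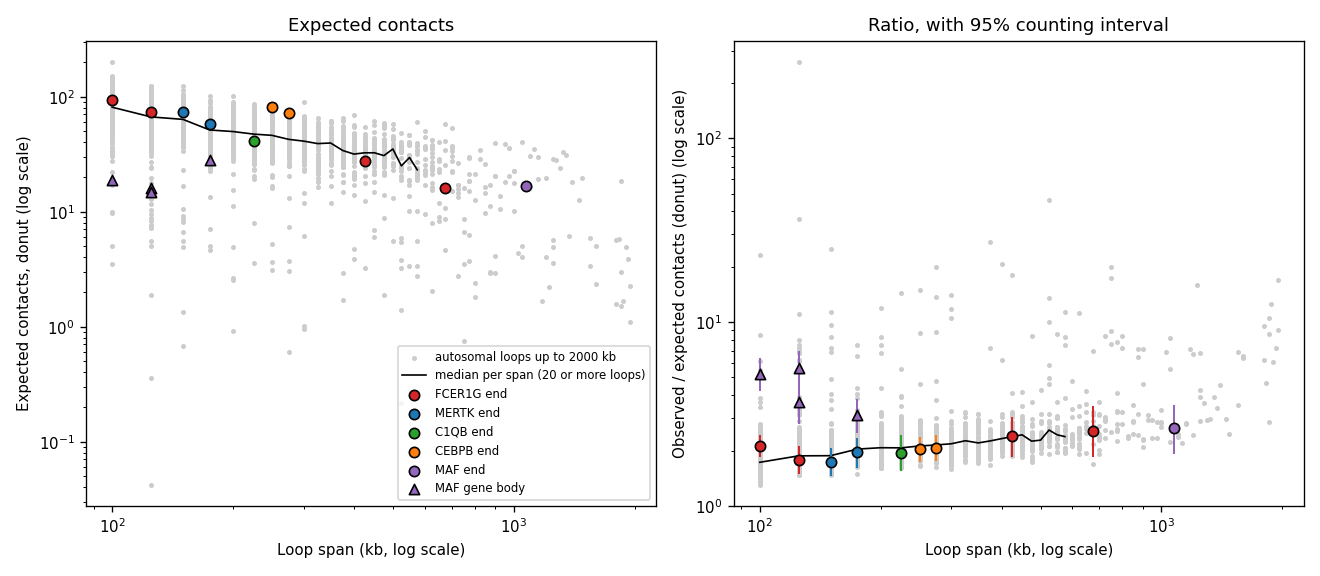
Expected contacts (left) and the ratio of observed to expected contacts (right) against loop span in kb, all on log axes, for the member loops over all autosomal loops of up to 2000 kb (grey). Circles are loops at a gene end, triangles those on the MAF body, vertical lines 95% counting intervals, and the black line the median per span where 20 or more loops share it. The MAF triangles lie low on the left, at 14.7 to 28.3 expected contacts, and high on the right, while the CEBPB circles lie high on the left and near the median on the right.

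The low expected values around MAF depended on the neighbourhood most in the 100 kb loop. Both 125 kb loops had similar horizontal and vertical expectations. These were 20.6 and 19.9 for the loop with 59 contacts, and 17.8 and 19.4 for that with 83. Their ratios by these neighbourhoods were 2.87 and 2.97, and 4.65 and 4.28. For the 100 kb loop and the 125 kb loop with 83 contacts, the lower-left expectation, taken from pixels between the loop and the diagonal, is listed at 0, as for 17 autosomal loops (0.521%). For the 100 kb loop the horizontal expectation was 53.4 and the vertical 4.20, so its ratio was 1.83 by the former and 23.3 by the latter. Horizontal and vertical expectations 10-fold or more apart occurred in 2 autosomal loops (0.0613%), of which this was one. The end loops of the members varied less, from 1.35 to 3.34 over all 4 neighbourhoods. The gene length of 441 kb is that of the annotation and was not checked here, so whether these loops lie on the transcribed gene depends on it. The coverage and assembly of these bins were not examined, so the ratios of 3.11 to 5.64 cannot be read as strong loops from these values alone. The cause of these values was not tested.

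**Figure D3:**
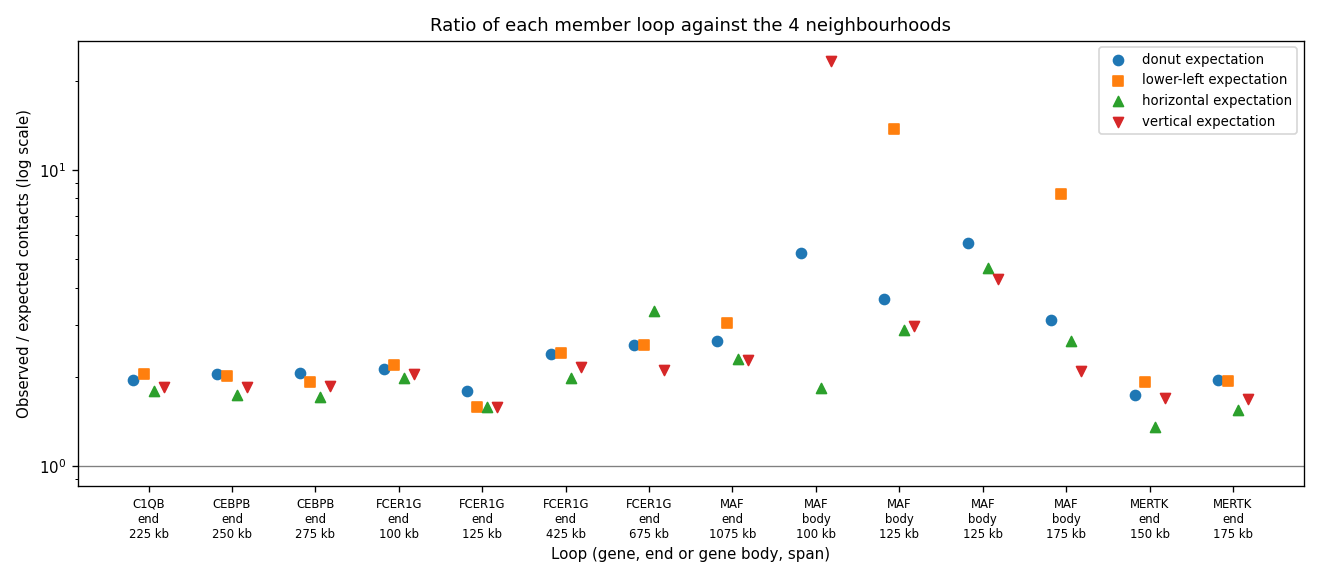
Ratio of observed to expected contacts (log axis) of each of the 14 member loops in each of its 4 neighbourhoods (donut, lower-left, horizontal, vertical), with the loops ordered by gene on the horizontal axis. The line marks a ratio of 1. The end loops keep their 4 values close together, and the MAF body loops spread up to 23.3, with 2 lower-left points missing because their expectation is listed at 0.

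MAF lay inside a long TAD, and its loops did not close it. The TAD ran from 7810001 to 9640000 and its 1830 kb exceeded 99.3% of listed TADs, whose median was 260 kb. It overlapped MAF, WWOX and 1 unnamed locus. All 5 loops lay inside it and both gene ends were at least 659 kb from its edges. Both anchors on the body of 1 protein-coding gene were seen in 10.1% of placed loops. Of genes of 75 kb or more, 6 (0.154%) had 4 or more such loops, namely MAF, SAMD4A, ODF2L, MKL1, RGL1 and PITPNC1. Touching pixels were counted separately here, and the 4 of MAF formed 2 groups.

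SPI1 had no listed loop at its ends or on its body. Its nearest anchor was 154 kb away on chromosome 2 (15400001 to 15425000), with ends of ARFGAP2 and C2H11orf49 and 3 loops of 200 to 250 kb that all ran away from SPI1. SPI1 lay inside a TAD of 480 kb (14850001 to 15330000), 84.3 kb from its nearer edge. This TAD was longer than 82.8% of those listed, overlapped 17 protein-coding genes and held 0 listed loops. Among the 17 were NR1H3, the oxysterol receptor LXR alpha of macrophages, MYBPC3, a heart muscle protein, and PSMC3, a proteasome subunit. An absent listing says only that no pixel here passed the limits of the list.

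Across the members, the 10 end loops had a median ratio of 2.05, from 1.74 to 2.64, against 2.0 for the 3261 autosomal loops. Of the 9 with 20 or more loops of like span, 2 lay above the median ratio of those loops and 7 below it. The median of observed contacts was 121, against 109, with a range from 41 to 200. Their median span was 237.5 kb, against 175 kb, so these medians are not matched on span, and no test was made. An FDR above 0.05 was listed for 3 of the 10, against 22.5% of autosomal loops. Touching pixels reduced the 10 loops to 7 separate groups. Among the 1701 loops with the lowest FDR, 3 of the 10 were left, 1 at FCER1G and APOA2 and 2 at CEBPB, and 9.34% of protein-coding genes met an anchor.

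Lists of genes of the same roles, members included, had shares at anchors from 5.56 to 38.5%. Without the members, the shares of the other genes ran from 0 to 33.3%. The lists were drawn up with earlier results of these data known. Of the Fc receptor and ITAM adaptor genes (ITAM is the signalling motif that FCER1G carries), 5 of 13 had an end in an anchor (38.5%, Wilson interval 17.7 to 64.5%), against 17.3% of all. These were FCER1G, FCGR3A, LYN and SYK, kinases of ITAM signalling, and OSCAR, a receptor that pairs with FCER1G. FCER1G and FCGR3A lie in the same region, so they are not independent. LYN had 2 loops of 150 and 175 kb, with a median of 99.5 contacts, to anchors with TGS1. SYK had 1 loop of 625 kb with 74 contacts, and OSCAR had 2, of 100 and 2725 kb. The largest FDR among the loops of each gene was 0.0728 for LYN, 0.0634 for SYK and 0.0842 for OSCAR. The median distance from a gene end to the nearest anchor was 8.63 kb in this list, against 94.9 kb over all genes. This median includes FCER1G at 0 kb, and no median without FCER1G was computed. FCER1G was chosen with its loops known, so the share of 5 of 13 and its interval are no test of the list. Without FCER1G, 4 of 12 (33.3%) remained, and no interval was computed for that share.

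In the other lists, 5.56 to 16.7% of genes were at anchors, members included, against 17.3% of all protein-coding genes. Each of their Wilson intervals contained 17.3%. Of the apoptotic cell receptor and bridging genes, 2 of 14 (14.3%, 4.01 to 39.9%) were, MERTK and ELMO1, an engulfment protein, with 1 loop of 225 kb. The other receptors of the MERTK family, AXL and TYRO3, had none, nor had their ligand genes GAS6 and PROS1. Of the complement genes, 1 of 18 (5.56%, 0.988 to 25.8%) was, namely C1QB. Of the myeloid transcription factors, 3 of 22 (13.6%, 4.75 to 33.3%) were: CEBPB, MAF and CEBPD, a relative of CEBPB whose 2 loops of 325 and 375 kb had a median of 105 contacts and a median ratio of 2.30. Of the other macrophage genes, 1 of 15 (6.67%, 1.19 to 29.8%) was, the protease gene CTSS, with a 100 kb loop of 157 contacts and an FDR of 0.083. Of the apolipoprotein genes, 2 of 12 (16.7%, 4.70 to 44.8%) were, APOA2 and APOO, a mitochondrial protein. All lists together had 14 of 94 genes at anchors (14.9%, 9.08 to 23.5%), of which 6 were members chosen with their loops known. No share without the members was computed for this total, so it cannot be set against that of all genes. The median number of loops per gene was 0 in every list and over all genes. The members in these lists were chosen with their loops known. Without them the shares were 1 of 13 (7.69%) for the apoptotic cell list, 0 of 17 for the complement list, 1 of 19 (5.26%) for the transcription factors and 1 of 11 (9.09%) for the apolipoprotein list. The intervals take genes as independent, which neighbours at one anchor are not.

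**Figure D4:**
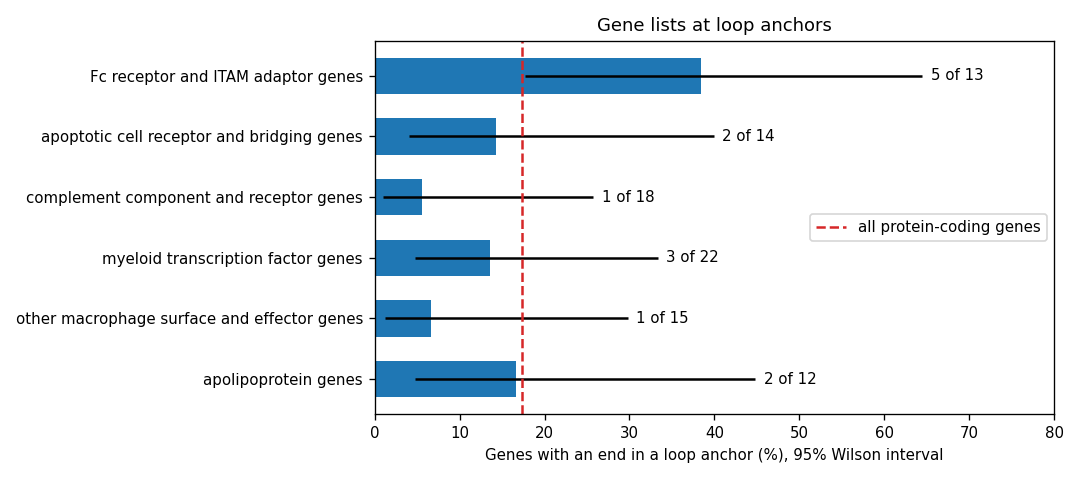
Percent of the matched genes of each list with an end in a loop anchor (bars from 0, black lines 95% Wilson intervals, counts at the right), with the share of all protein-coding genes as a dashed line at 17.3%. The bar of the Fc receptor and ITAM adaptor genes reaches 38.5% and the bars of the other 5 lists end at or below 16.7%. Bars and intervals include the members, which were chosen with their loops known.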

How the data were processed

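Hi-C libraries of 2 spleen replicates were cut with DpnII per the labels' protocols and, per the submitters' processing notes, handled with HiC-Pro 3.1.0. The deposited TAD list gives starts and ends on a 10 kb grid. The deposited loop list comes from juicer_tools 1.9.9 (per the file headers) and holds raw contact counts per 25 kb pixel, expected contacts computed from 4 neighbourhoods of the pixel, and 4 FDR columns (q-values) below 0.1. Not given in the sources used here are the TAD caller, the pooling of replicates, the sequencing depth and the genome build. Genes came from RefSeq (Sscrofa11.1), without strand or exons, and their coordinates are not printed. Protein-coding gene ends per anchor were 0.858 at the listed positions and 0.666 to 0.675 when anchors were displaced by 100 kb.

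Loops were assigned to gene ends or bodies with Python 3.11.15 and pandas 2.3.3, and ratios computed as counts over expected contacts. The members and the 6 gene lists were chosen with earlier results of these data known. Of 99 list entries, 94 matched. The rule for naming took the members, their partner genes, the genes of each list with an end in an anchor (at most 5) and the 3 genes sharing most loops. Other genes named (list members without loops, genes enclosed by a loop or TAD, nearest genes) were chosen after their values were seen. Results on some genes are not reported here. No test was made. The counting of loops was tested on simulated data. Alternatives were gene bodies, wider anchors, a single pixel per touching group, the loops of lowest FDR, other neighbourhoods, other edge windows and any TAD overlap.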

Additional observations from a re-analysis of the deposited data

How the results depend on the processing

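Of 73 values computed under the alternatives, with FCER1G and APOA2 counted once, 49 stayed within 1.5 times the reported count or share or, for a ratio, within its 95% counting interval. Among the 1701 loops with the lowest FDR (up to 0.0111), 3 of the 10 end loops and 3 of the 6 members with loops remained, namely 1 loop of FCER1G and APOA2 (200 contacts) and both of CEBPB, and MERTK, C1QB and MAF had none at an end. A single pixel per touching group dropped the 125 kb FCER1G loop, the 150 kb MERTK loop and the 275 kb CEBPB loop. All 4 MAF body loops were kept among the 1701 loops with the lowest FDR, and 2 with a single pixel per group. In those 1701 loops the Fc receptor list had 15.4% at anchors (2 of 13, FCER1G included) against 9.34% of all genes. The myeloid transcription factor list had 9.09% (2 of 22, CEBPB included) and the apolipoprotein list 8.33%, APOA2 included. The apoptotic cell, complement and other macrophage lists had 0%. Anchors extended by 10 kb gave CEBPB 4 loops in place of 2 and raised the complement list to 27.8% and the other macrophage list to 13.3%, against 24.5% of all genes. With gene bodies MAF had 5 loops. The pooled ratio of the 10 end loops, 2.02 by the donut, was 1.73 by the horizontal and 1.84 by the vertical neighbourhood, and that of the MAF body loops fell from 4.21 to 2.62 by the horizontal. The lower-left ratio of the body loops was not computed, since 2 expectations are listed at 0. Within 10 kb of a TAD edge lay 0 members and within 40 kb 3, in place of 1 within 20 kb. No paired analysis was possible because both tables cover the series as a whole, and no replicate could be left out. Depth is unknown, and loops of 41 or 44 contacts have the widest counting intervals relative to their ratio.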
